A study of Mus musculus with 2 samples.

Results

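The genes described here are 10 genes of epidermal stratification and of the cornified envelope: the transcription factor genes Trp63 and Grhl3, the keratinocyte genes Sfn, Perp and Krtdap, the envelope precursor genes Lor, Ivl, Evpl and Ppl, and the cross-linking enzyme gene Tgm1. They were taken by symbol, and every probe set that the array annotation assigns to them was used, which gave 16 probe sets for 10 of the 18194 genes with a probe set of 1 symbol. None of these probe sets is shared with another gene symbol in the annotation. RNA of wild-type whole embryos at E14.5 had been hybridised to 2 Affymetrix mouse genome arrays, so there is 1 condition, without treatment or mutant, and nothing was compared between groups. NMRI and C57/BL6 are the strains used for E14.5 embryos in the study, and which of them the arrays used is not given in the sources used here. Whether the duplicates came from separate embryos is not given either, and their spread may be only technical.

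The epidermis forms from a single layer of surface ectoderm, which the factor p63, encoded by Trp63, commits to a stratified fate. Cells then leave the basal layer, pass through the spinous and granular layers, and end as dead cornified cells. In this last step envelope proteins are laid down under the plasma membrane and joined by transglutaminases, and the water barrier is completed late in gestation, after the stage studied here.

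Signals are given on the linear scale of the deposited values, array 1 before array 2. A probe set counts as above background when its signal exceeds a bound derived from chemosensory receptor genes (olfactory, vomeronasal and bitter taste), which served as genes without transcription. The 95th percentile of their 81 probe sets gave bounds of 27.9 for array 1 and 33.8 for array 2, with receptor medians of 6.4 and 7.5. For a gene, 1 probe set over the bound on each array was enough. Some genes of other lists taken as silent passed it as well: 2 of 12 of late spermatids, 1 of 10 of photoreceptors and 1 of 9 of milk and adult liver proteins. Of these, the spermatid gene Spata3 had 68.2 and 69.9, Tssk1 34.8 and 50.3, Rbp3 46.7 and 49.6, and Cyp2c29 37.4 and 56.6. A signal over the bound is therefore not by itself proof of transcription. Probe sets respond differently to the same amount of RNA, so signals are compared with the bound and between arrays and never between genes. In RNA of a whole embryo, fewer epidermal cells and less transcript per cell cannot be told apart. Defining genes of liver, blood, cartilage, neurons, muscle and endothelium (Afp, Alb, Hbb-y, Col2a1, Tubb3, Myog and Pecam1) were all above background. Pecam1, at 52.2 and 38.8, did not pass with the 99th percentile as bound or with a bound from the silent lists. The 3 measured genes of placental trophoblast (Tpbpa, Psg17 and Cts7) were at 0.8 to 7.6.

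Upstream sequence is shown for Lor, Ivl and Krtdap because they fall on different sides of the bound and carry the same pair of short motifs. RefSeq promoter windows of GRCm38.p6 were found for 6 of the 10 genes (Lor, Ivl, Sfn, Grhl3, Krtdap and Tgm1). Each line gives the 250 bases before an annotated start, 5′ to 3′ on the strand of the gene. Capitals mark matches to TGANTCA, the core that AP-1 factors bind, and to TATAAA, the TATA box. The sequences lie at chr3:92083143-92083392, minus strand (Lor), chr3:92573736-92573985, minus strand (Ivl) and chr7:30787655-30787904, plus strand (Krtdap).
Lor: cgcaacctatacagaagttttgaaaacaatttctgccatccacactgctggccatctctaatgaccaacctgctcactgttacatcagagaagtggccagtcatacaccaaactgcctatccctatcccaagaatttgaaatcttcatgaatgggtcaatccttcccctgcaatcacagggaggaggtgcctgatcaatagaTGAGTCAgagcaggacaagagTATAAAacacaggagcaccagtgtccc
Ivl: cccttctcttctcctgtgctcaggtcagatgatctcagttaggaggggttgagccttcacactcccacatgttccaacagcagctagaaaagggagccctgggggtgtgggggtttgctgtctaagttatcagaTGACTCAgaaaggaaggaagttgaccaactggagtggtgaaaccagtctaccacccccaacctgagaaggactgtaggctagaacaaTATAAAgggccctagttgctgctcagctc
Krtdap: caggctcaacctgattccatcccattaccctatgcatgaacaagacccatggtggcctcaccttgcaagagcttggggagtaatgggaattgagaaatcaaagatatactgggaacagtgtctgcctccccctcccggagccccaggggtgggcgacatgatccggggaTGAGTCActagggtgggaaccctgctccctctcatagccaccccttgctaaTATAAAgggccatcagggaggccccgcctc

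The TATA box match begins 27 bases before the start in Lor, 29 in Ivl and 30 in Krtdap. The TGANTCA match begins 48 bases before the start in Lor, 116 in Ivl and 81 in Krtdap. Both motifs were searched on both strands, and they do not overlap in these windows. Of 32851 RefSeq windows of the same length, 12.4% hold TATAAA, 6.75% hold TGANTCA and 1.21% hold both. Both motifs were present in 3 of the 6 genes with a window, and neither was found in Sfn, Grhl3 or Tgm1. The grainyhead motif AACCNGTT, present in 1.79% of windows, was found in Sfn, and CCAAT, present in 33.8%, in Sfn, Grhl3 and 1 of the 2 windows of Tgm1. The half-site of the p53 family, present in 7.13% of windows, was in none of the 7 windows. The motifs were chosen after the sequences were seen, and a match is a description of letters and not of binding.

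Of the 10 genes, 8 were above background on both arrays, beside 65.5% of all genes. The exceptions were Ivl and Tgm1. The share of all genes that pass depends on the number of probe sets, and among genes with 1 probe set it was 48.6%. Of the 7 members with 1 probe set, 6 passed. By probe set, 9 of 16 lay above the bound on both arrays, beside 55.6% of all probe sets with 1 symbol, 6 lay below it on both, and that of Tgm1 passed on array 1 only.

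**Figure D1:**
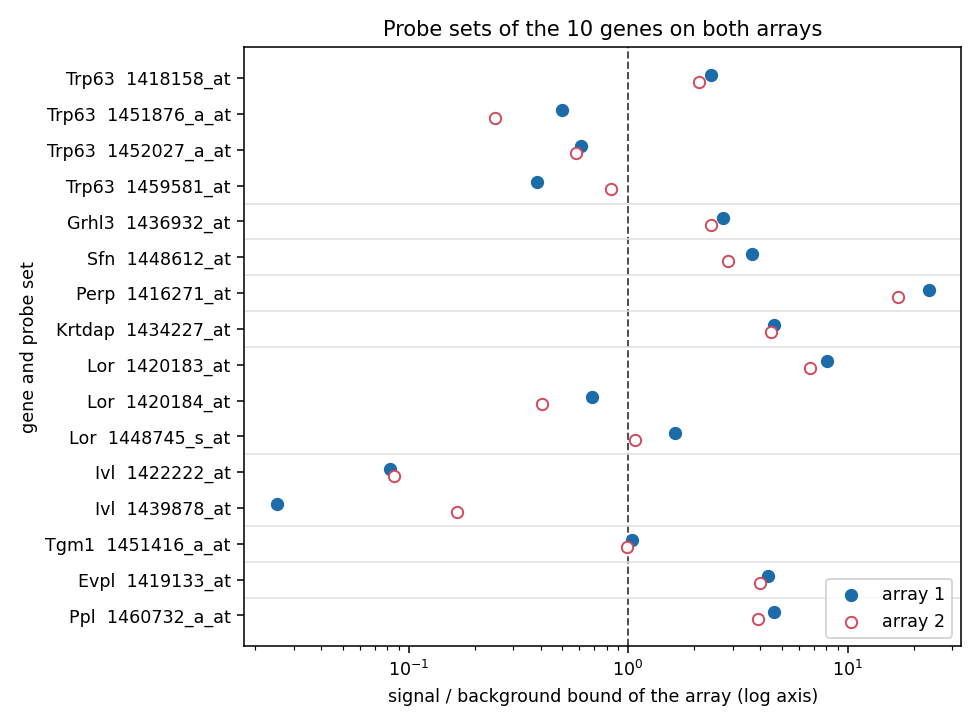
Signal of each of the 16 probe sets divided by the background bound of its array, on a log axis, for array 1 (filled) and array 2 (open). The dashed line marks the bound. Perp, Krtdap, Evpl, Ppl and Lor 1420183_at lie right of it by a factor of more than 3.9 on both arrays. Tgm1 lies on it, and both probe sets of Ivl lie far to the left.

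Both transcription factor genes were above background. Trp63, the p53 relative on which all stratified epithelia depend, was detected by probe set 1418158_at, at 66.7 on array 1 and 71.4 on array 2. Its 3 other probe sets did not pass. Probe set 1451876_a_at had 13.9 and 8.4, 1452027_a_at had 17.1 and 19.6, and 1459581_at had 10.7 and 28.2. The call of Trp63 therefore rests on 1 of 4 probe sets, at 2.39 and 2.11 times the bounds. Spata3 of the silent lists, with 68.2 and 69.9, lay further above the bound on array 1 and slightly less far on array 2. Trp63 is transcribed from alternative promoters and spliced at its end, and the annotation used here does not say which transcripts each probe set detects. Grhl3, a grainyhead factor needed for barrier formation and for closure of the neural tube, had 75.1 and 80.8, which is 2.69 and 2.39 times the bounds.

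The keratinocyte genes all passed. Perp encodes a membrane protein of desmosomes and is a target of p63, and its signals were 652 and 573 (613 ± 56.1, SD, n = 2 arrays), 23.4 and 16.9 times the bounds. Sfn, the 14-3-3 protein of stratified epithelia that holds back the cell cycle in differentiating keratinocytes, had 102 and 96.0. Krtdap, a small secreted protein of differentiating suprabasal keratinocytes, had 129 and 151.5 (140.4 ± 15.6, SD, n = 2 arrays). Each of these genes has 1 probe set, so no second probe set checks the value.

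The envelope precursors were divided. Evpl and Ppl encode envoplakin and periplakin, plakins that pair with each other and tie the forming envelope to desmosomes and keratin filaments. Evpl had signals of 122 and 135, and Ppl had 129 and 132 (130.4 ± 2.33, SD, n = 2 arrays). Both lay between 3.91 and 4.61 times above the bounds. Ivl, which encodes involucrin, an early scaffold protein of the envelope, was below the bound in both of its probe sets. Probe set 1422222_at had 2.3 and 2.9 and 1439878_at had 0.7 and 5.6, under the median of the receptor probe sets on each array.

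Lor encodes loricrin, the glycine-rich protein that makes up most of the mature envelope, and its 3 probe sets did not give the same answer. Probe set 1420183_at had 225 and 229, which is 8.05 and 6.77 times the bounds. Probe set 1448745_s_at had 45.4 and 36.2 and passed narrowly, at 1.63 and 1.07 times the bounds, and its suffix marks it as matching more than 1 transcript. Probe set 1420184_at had 19.1 and 13.7 and did not pass. The array annotation gives a sequence accession for 1448745_s_at only. Without 1420183_at, an alternative chosen after the values were seen, Lor still passed at 1.07 times the bound on its lower array, but with the 99th percentile bound it then stood at 0.875. The presence of Lor thus rests mainly on 1 probe set.

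Tgm1 encodes the membrane-bound transglutaminase that joins these proteins in keratinocytes. Its probe set had 29.1 on array 1 and 33.5 on array 2, or 1.04 and 0.991 times the bounds. Its side depended on the setting: with the 90th percentile bound or with array 1 alone it passed, and with array 2 alone it did not. With the 99th percentile bound, a bound from the silent lists and the array median it did not pass either, at 0.81, 0.668 and 0.909.

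The other genes of the epidermis, in 7 lists, were above background in 62 of 92 measured cases (67.4%), close to the 65.5% of all genes, but the lists differed. Genes of the basal and spinous layers, of periderm and of desmosomes passed in 34 of 38 cases (89.5%). Genes of the granular and cornified layers and of the lipid barrier passed in 15 of 36 (41.7%). Among genes with 1 probe set the tallies were 17 of 21 and 9 of 28, beside 48.6% of all genes with 1 probe set. Among genes with several they were 17 of 17 and 6 of 8, and no share of all genes was taken for these. The first lists also hold genes of simple epithelia, and the part of other tissues in these counts was not tested. No test was made of these counts, since genes are not replicates.

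In the basal list 9 of 11 genes passed. The keratin genes Krt5, Krt14 and Krt15, whose proteins form the filaments of basal cells, had 553 and 520.4, 354 and 310.2, and 395 and 331. Itga6, an integrin subunit of hemidesmosomes, had 409 and 369. Its partner Itgb4 did not pass, at 21.5 and 17.1, and Lamb3, a chain of the laminin beneath the basal cells, passed on array 1 only, at 32.0 and 23.2. All 9 measured genes of the spinous layer passed. Krt1 and Krt10, the keratin pair that replaces Krt5 and Krt14 when cells leave the basal layer, had 667 and 609 and 800.4 and 824. The desmosomal cadherin genes Dsg1a and Dsc1 had 33.2 and 46.4 and 51.8 and 51.4. Of the genes of periderm, the flat cell layer that covers the early epidermis, and of simple epithelia, 8 of 9 passed, among them Krt8 (508 and 555), Krt18 (376 and 396), Krt19 (236 and 236) and Krt17 (55.5 and 62.5). Krt6b was the exception, at 2.9 and 13.5. Desmosome genes passed in 8 of 9 cases, including Dsp (1279 and 1279), Jup (235 and 224), Pkp1 (230.4 and 191) and Pkp2 (72.6 and 92.9), but not Dsg1b at 6.3 and 6.6. The only probe set of Jup is of the _s_at kind, and without _s_at and _x_at probe sets the desmosome count was 7.

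In the granular and cornified list 7 of 22 genes passed. Flg, which encodes filaggrin, and Krt2, a keratin of the upper layers, were below the bound at 3.6 and 4.4 and at 9.5 and 9.4. Casp14, a caspase of cornifying cells, was above it at 64.4 and 100.2, and Cdsn, a protein of cornified desmosomes, passed on array 1 only, at 49.4 and 28.5. The other genes that passed, listed here after their values were seen, were Tgm3, Cnfn, Scel, Asprv1, Sprr1a and Calm4. The value of Casp14 is from an _x_at probe set, the only 1 of its 2 to pass on both arrays. Without _s_at and _x_at probe sets the count of this list was 6, and Casp14 was lost. In the lipid barrier list 8 of 14 passed. Of its lipoxygenase genes Alox12b was far below the bound at 1.2 and 2.5, and Aloxe3 was above it at 36.2 and 42.5. Abca12, a lipid transporter, had 21.7 and 17.4, and Elovl4, an elongase of very long fatty acids, had 88.6 and 96.3. The lipid list fell to 5 with a bound taken from other silent genes.

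Among regulators of the epidermis 13 of 18 passed, including Tfap2a (97.2 and 97.1), Tfap2c (69.1 and 84.5), Klf4 (397 and 367) and Klf5 (299.5 and 289.8). The exceptions were Ovol1 and Ehf, which passed on array 2 only (26.7 and 35.3, and 16.1 and 35.5), Ovol2 (23.2 and 17.1), Zfp750 (26.5 and 21.2) and Barx2 (2.9 and 4.5). The value of Tfap2c is from an _s_at probe set, the only 1 of its 3 to pass on both arrays. Without _s_at and _x_at probe sets the count of regulators was 12.

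**Figure D2:**
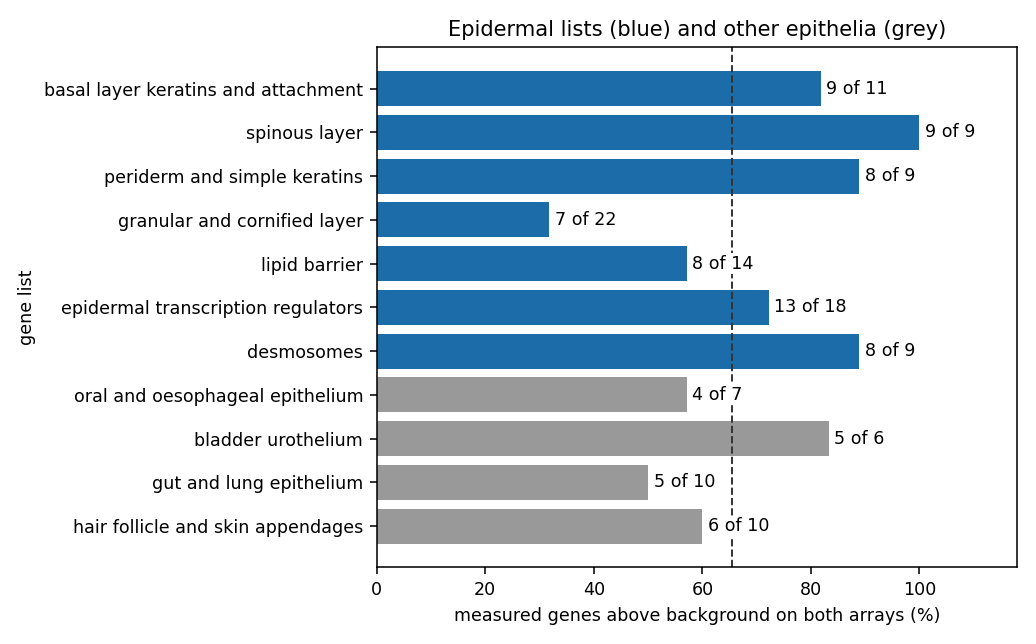
Percentage of genes above background on both arrays in each list, out of those measured, for epidermal lists (blue) and lists of other epithelia (grey), with the numbers of genes beside the bars. The dashed line marks the 65.5% of all genes; the granular and cornified list reaches 31.8% and the spinous list 100%.

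Several of the 10 genes are known from other epithelia as well, and genes listed for these were counted in the same RNA. Of the measured genes 57.1% passed for oral and oesophageal epithelium, 83.3% for bladder urothelium and 50% for gut and lung epithelium. The hair follicle list had 60%, beside 65.5% of all genes. Above background were 4 of 7 genes of oral and oesophageal epithelium, with Krt4 at 305.5 and 311 and Krt13 passing on array 2 only, at 37.1, 5 of 6 of bladder urothelium, with Upk1b at 76.7 and 80.8, and 5 of 10 of gut and lung epithelium. Of the gut and lung list Sftpc (187 and 175.6), Sftpb (63.5 and 69.1), Epcam, Cldn7 and Shh passed. The gut genes Vil1 (21.5 and 26.2) and Cdh17 (15.5 and 27.0) did not pass. Neither did Cdx1, Cdx2 and Nkx2-1 of the same list, nor Krt76 and Krt78 of the oral and oesophageal list. In the hair follicle list 6 of 10 passed, with Shh, the signal of the follicle placode, at 129.6 and 112. Shh is also counted in the gut and lung list. Edar, a receptor of the placode, had 2.3 and 2.3. Also below were Krt71 (27.4 and 26.7), Krt25 (12 and 12.4) and Tchh (5.8 and 3.6). Eda passed through different probe sets on the 2 arrays, and with calls from the same probe set the count was 5. The hair follicle count was 3 with the 99th percentile bound and with a bound from the silent lists, and with the bound from the silent lists the urothelium count was 3. All 6 genes of dermis and mesenchyme passed. The part of these tissues in the signals of the 10 genes was not tested.

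The families to which the genes belong were counted with the members among them, and 65.5% of all genes passed. The 14-3-3 genes other than Sfn and Ywhah have 4 to 8 probe sets, and the share that passes depends on that number. All 7 plakin genes (Evpl, Ppl, Dsp, Plec, Dst, Macf1 and Eppk1), all 7 genes of the 14-3-3 proteins and all 6 of the Perp and Pmp22 group passed. Of the grainyhead family 5 of 6 did, with Grhl1 at 51.3 and 55.2, Grhl2 at 71.7 and 62.0 and Tfcp2l1, the exception, at 19.5 and 33.3. Trp73, the other p53 relative measured, lay close to the bounds at 31.6 and 34.3 and was lost with the 99th percentile bound, the bound from the silent lists and the array median as bound. Of the transglutaminase family 4 of 8 passed (50%). Tgm2, the widely expressed enzyme, had 587 and 544, and Tgm3, which acts in the epidermis and hair follicle, had 52.1 and 68.8. F13a1, the clotting factor subunit, and Epb42, a red cell membrane protein without enzyme activity, also passed. Tgm1, Tgm4, Tgm5 and Tgm6 did not. Perp and Sfn are targets of p53 too, and of 9 other measured p53 target genes 7 passed, including Cdkn1a (321 and 377), Mdm2 (217 and 155) and Gadd45a (63.6 and 72.0), but not Bbc3 (48.1 and 30.6, above on array 1 only) or Pmaip1 (12.6 and 10.5).

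Lor and Ivl lie in the epidermal differentiation complex, a cluster of genes on chromosome 3 that act late in keratinocyte differentiation. The RefSeq annotation places 70 protein-coding genes from S100a1 to S100a10. Of the 48 that were measured, 14 (29.2%) were above background, beside 65.5% of all genes. Most of the 48 have 1 probe set, and of all genes with 1 probe set 48.6% passed. The S100 genes, which encode small calcium-binding proteins and lie mostly at 1 end, passed in 8 of 12 cases. The other genes passed in 6 of 36 (16.7%), and Lor was among them. These were 1 of 8 small proline-rich genes (Sprr1a at 53.4 and 57.4), 3 of 15 late cornified envelope genes (Lce1a2, Lce1i and Lce3b), Kprp (41.1 and 39.8) and Lor itself. None of the 5 measured fused S100 genes (Flg, Hrnr, Rptn, Tchh and Tchhl1) passed. Between Lor and Ivl lie 16 genes in the annotation, of which 10 were measured and 1, Sprr1a, passed. The S100 genes above background were S100a1, S100a13, S100a14, S100a16, S100a6, S100a8, S100a9 and S100a10. S100a8 (923 and 592) and S100a9 (577 and 508) are also abundant in neutrophils. Late cornified envelope and small proline-rich genes form separate families, some of whose members are close copies, such as the Sprr2a genes, and a probe set may respond to more than 1 copy. Of 3 probe sets that the annotation assigns to several Sprr2a genes, 1 of the _x_at kind had 145 and 133, and the others had 7.5 to 15.5. Without _s_at and _x_at probe sets the count for the whole complex was 11 in place of 14.

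**Figure D3:**
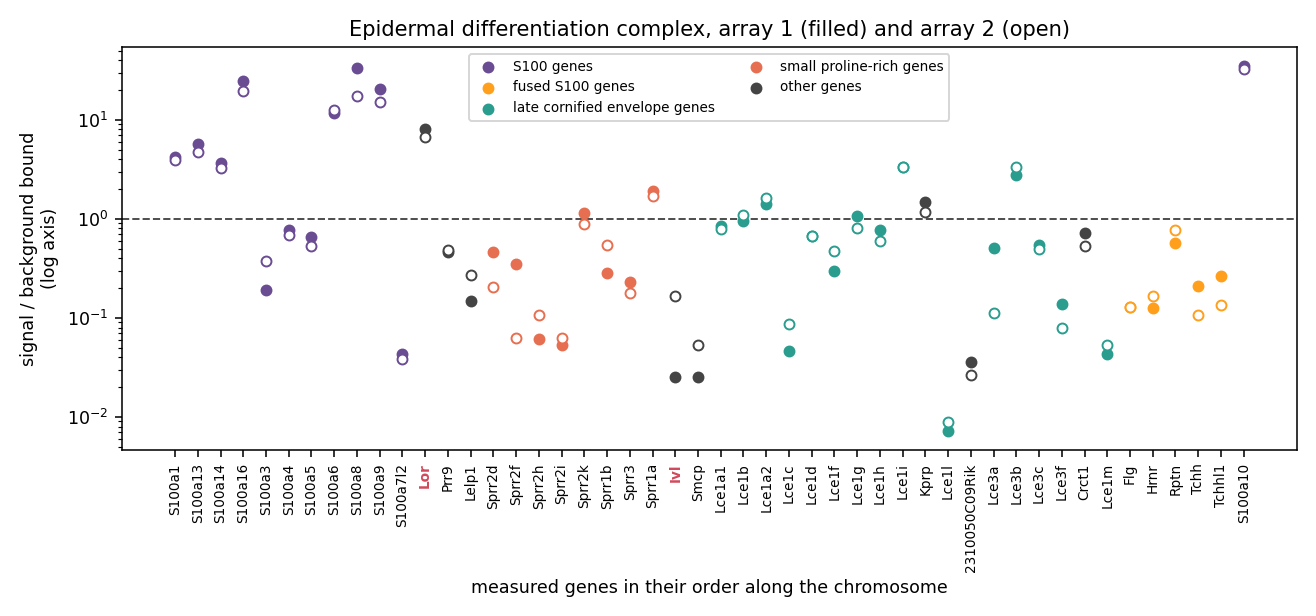
Signal over the background bound (log axis) of the 48 measured genes of the epidermal differentiation complex in gene order, for array 1 (filled) and array 2 (open), coloured by gene group, with Lor and Ivl in red. Apart from the S100 genes, 6 of 36 genes lie above the dashed line on both arrays, Lor among them, and Ivl lies far below it.

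The duplicates gave similar signals for the 9 probe sets of 8 genes that lay above background on both arrays. Ivl, Tgm1 and the other probe sets of Trp63 and Lor did not enter, and some of these differed more, such as Ivl 1439878_at with 0.7 and 5.6 and Trp63 1459581_at with 10.7 and 28.2. For each probe set above background on both arrays, the log2 signal of array 1 was subtracted from that of array 2, and the median over all 22138 such probe sets was taken off. The 9 probe sets had differences from -0.34 (Lor, 1448745_s_at) to 0.22 (Krtdap), with a median of 0.03. None of them differed by more than 1.5-fold, beside 3.74% of all probe sets. Perp was lower on array 2 by 0.20 and Sfn by 0.10 on this scale, and Trp63 (0.09), Grhl3 (0.10), Evpl (0.15) and Ppl (0.03) were slightly higher. Over all probe sets above background the SD of this difference was 0.26. The differences of 8 of the 9 lay within it, and only that of Lor 1448745_s_at was larger.

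Among the epidermal lists, 8 of 9 basal genes had a lower signal on array 2, with a median of -0.20. Lama3 (50.6 and 34.4) and Col17a1 (59.7 and 41.2) lay at -0.57 and -0.54, and Krt15 at -0.27. The medians were -0.02 for spinous genes, 0.01 for periderm genes, -0.12 for desmosome genes, -0.01 for regulators, 0.09 for granular and cornified genes and -0.13 for lipid barrier genes. Among regulators, Jag2, a Notch ligand gene, had 38.3 and 76.4, a difference of 0.99. All of these set 1 array against 1 array of the same condition and have no replicate check.

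**Figure D4:**
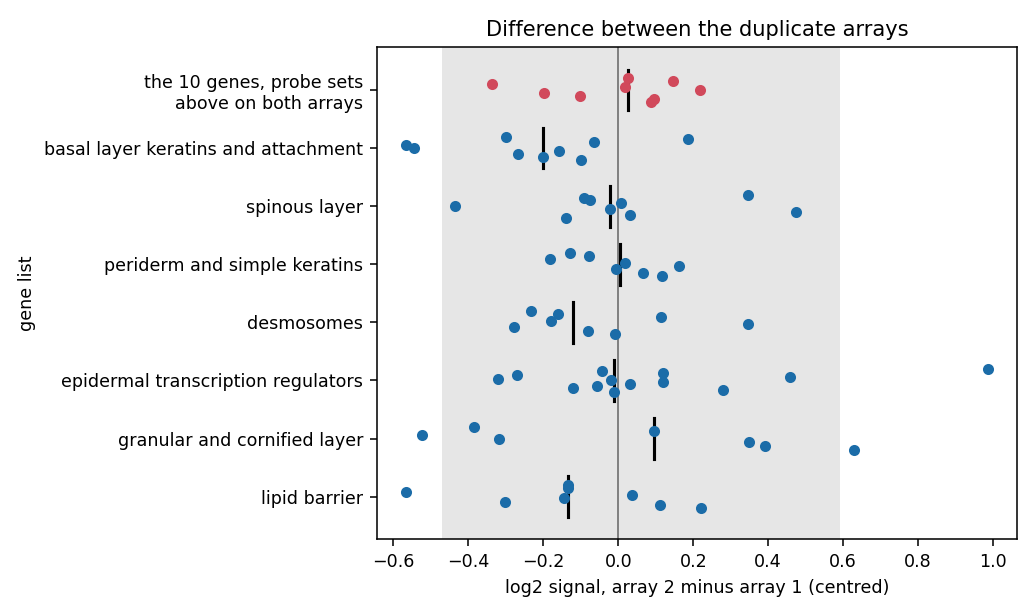
Centred log2 difference, array 2 minus array 1, of the probe sets of the 10 genes (red) and of the epidermal lists (blue, 1 probe set per gene), with the median of each as a black bar. The grey band holds the central 95% of the 22138 probe sets above background; all 9 red points lie in it, and the basal genes have their median at -0.20.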

How the data were processed

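Transcripts of whole E14.5 mouse embryos were measured on 2 Affymetrix mouse genome arrays. The authors processed the scans with GCOS 1.3, per the submitters' processing notes, and deposited 1 signal intensity for each probe set of each array, without a log transform. On both arrays the mean was 100 after trimming of 2% at each end, so each array had been scaled. Detection calls were not used here. Precision is limited by there being 2 arrays.

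The 10 genes were found by symbol in the array annotation. Other probe sets were named from it where it gives 1 symbol (34958 of 45101), and 34754 of these were updated through gene identifiers in RefSeq GRCm38.p6. Where a listed gene has several probe sets, values are those of the probe set with the largest mean over both arrays. The members and the gene lists were chosen with earlier results of these data known. Of 233 listed names 214 were measured. The text names all 10 genes, the first 4 measured genes of each epidermal list and its exceptions where these are 5 or fewer. For the gene complex the rule was the first 10 genes above background, and the rest of the 14 were named as well. Other genes were named after their values were seen. With 1 condition, and genes not being replicates, no test was run. The steps were tested on simulated arrays, where silent and expressed signals were drawn well apart. That test cannot speak for calls near the bound.

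Calls were repeated with the 90th and 99th percentile as bound, with bounds from lists of silent genes or at the array median, with calls from the same probe set or from at least 50% of probe sets, without _s_at and _x_at probe sets, and for each array alone. Differences were repeated without centring, after quantile normalization, on unfiltered signals plus a pseudocount of 16, with the 99th percentile bound and without those probe sets. Tools were numpy 2.4.6, pandas 2.3.3, matplotlib 3.10.9 and scipy 1.17.1 under Python 3.11.15.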

Additional observations from a re-analysis of the deposited data

How the results depend on the processing

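The number of the 10 genes above background was 7 to 9 under the 9 alternatives, against 8. It was 9 with the 90th percentile bound or array 1 alone, where Tgm1 passed at 1.16 and 1.04 times the bound, and 7 when at least 50% of the probe sets of a gene had to pass, where Trp63 stood at 0.58. The other 8 genes kept their side of the bound in every alternative planned. The count of lipid barrier genes was 5 with the bound from silent lists (41.7 and 50.1 in place of 27.9 and 33.8). Without a filter and with a pseudocount of 16, 1959 probe sets differed by more than 1.5-fold in place of 829, and among the 10 genes 1 did (Trp63, 1459581_at), since probe sets below the bound then entered. With the silent-list bound the basal and spinous counts were each 7 in place of 9. The granular and cornified count was then 5 in place of 7, and that of regulators 11 in place of 13. Periderm and desmosome counts stayed at 8. With the 99th percentile bound the basal count was 7 and the spinous count 8. For the lists, 181 of 189 repeated counts stayed within a factor of 1.5, these among them. Apart from the lipid list, the others were hair follicle genes, 3 in place of 6 with the 99th percentile bound and the silent-list bound, urothelium genes, 3 in place of 5 with the silent-list bound, and the p53 family, 1 in place of 2 with both of these bounds, with the array median and, through Trp63, when at least 50% of probe sets had to pass. For genes with 1 probe set, such as Tgm1, a weak probe set and a scarce transcript cannot be told apart.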
